A study of Homo sapiens with 3 samples.

Results

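The genes described are 10 that encode heterogeneous nuclear ribonucleoproteins (hnRNPs): HNRNPA1, HNRNPA2B1, HNRNPA3, HNRNPC, HNRNPD, HNRNPF, HNRNPH1, HNRNPK, HNRNPM and HNRNPU. They were taken as a named list, and a ribosome-profiling peak was counted for a gene when the RefSeq transcript of its annotation belonged to that gene. Peaks annotated as promoter-TSS, 5′-UTR, exon or 3′-UTR were counted and are called transcript peaks here. Of the 10 genes, 9 had at least 1 transcript peak, among 3418 genes with a transcript peak in the series. HNRNPA1 had 0 by this rule, and the peaks that lie in its exons are described separately.

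Ribosome profiling reads the pieces of mRNA that a ribosome shields from nuclease digestion. HEK293T cells, a human embryonic kidney line, were transiently transfected for 24 h with the empty pCDNA3.1 vector, with FLAG-tagged wild-type DDX3X or with FLAG-tagged DDX3X G325E. DDX3X is an RNA helicase, and the G325E substitution has been found in medulloblastoma. The labels name no removal of the endogenous DDX3X in any group. There was 1 library for each of the 3 groups, so no difference below could be set against the spread between cultures, and no test was run.

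Per the labels, all 3 groups received harringtonine at 2 µg/ml for 90 s and then cycloheximide at 100 µg/ml, whereas the study's methods name cycloheximide alone, and the files do not settle which applies. The labels call the cells neuronal. Of 10 neuronal marker genes, 7 had 0 transcript peaks in every list, including RBFOX3 and MAP2, and peaks were listed on TUBB3, NEFL and NEFM only. The 3 lists held 8834 (vector), 15830 (wild-type) and 12528 (G325E) transcript peaks. A list gives where peaks were called but no height or read count, so a number of peaks is not a translation rate, and a change in ribosome occupancy cannot be told apart from a change in the amount of mRNA or of sequencing. On DDX3X itself 0, 32 and 9 transcript peaks were listed in vector, wild-type and G325E. Peak numbers ran without a break in the G325E list, while the vector list skipped 1952 numbers (14.8%) and the wild-type list 3099 (13.5%). Peaks behind the skipped numbers were not analysed here, and of the hnRNP transcript peaks 1 (vector), 3 (wild-type) and 5 (G325E) lay in stretches where a list skipped a number. These were 1.56%, 2.88% and 10.4% of the hnRNP transcript peaks, beside 6.4%, 13.6% and 32.2% over all genes.

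The hnRNPs coat new transcripts in the nucleus and take part in splicing, export, localisation, stability and translation of mRNA. Most bind RNA through RNA recognition motifs (RRMs), hnRNP K does so through KH domains, and hnRNP U through a glycine- and arginine-rich tail. They are abundant in proliferating cells, and several are among the RNA-binding proteins of stress granules.

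Short coding peaks give a direct view of where footprints were called. Capitals mark the bases that the overlapping peaks of every list that had one share, and all sequences are mRNA-sense GRCh37 sequence read at the coordinates of the files, with codons counted on the GENCODE canonical transcript. The first set shows peaks of the same stretch of the first RRM in the 3 hnRNP A paralogs, where HNRNPA3 had a peak in all 3 lists and the others in vector and wild-type alone.
HNRNPA3, exon 2, chr2:178080360-178080382, plus strand, codons 56 to 63: GAGAAATGGGGCACACTCACAGa
HNRNPA2B1, exon 3, chr7:26237249-26237276, minus strand, codons 28 to 37: ACTACGAACAATGGGGAAAGCTTACAGA
HNRNPA1, exon 2, chr12:54675257-54675281, plus strand, codons 35 to 43: GAGCAATGGGGAACGCTCACGGACT
The longest run of letters common to the 3 peaks was the 7-base AATGGGG. The whole HNRNPA2B1 sequence occurred at 1 place in the genome, the HNRNPA3 sequence at 7 and the HNRNPA1 sequence at 11, so a read from either of these last genes could have been placed on another copy.

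The second set shows coding peaks of HNRNPU, HNRNPH1 and HNRNPF. The HNRNPU peaks of exons 2 and 3 were in all 3 lists, and the peak of exon 10 was in vector and wild-type but not in G325E. In HNRNPH1 the exon 10 peak was in all 3 lists and the exon 11 peak in vector and wild-type. G325E did not stop before this peak: it had another in exon 11 and 2 in exon 12, with midpoints up to codon 426. The HNRNPF peaks were in wild-type alone. The peaks that were absent from G325E were chosen after their values were seen.
HNRNPU, exon 2, chr1:245025922-245025941, minus strand, codons 261 to 268: tGAAGAGAACAAGTATAGCA
HNRNPU, exon 3, chr1:245025817-245025836, minus strand, codons 268 to 275: AGCCAAATCTCCTCAGCCAC
HNRNPU, exon 10, chr1:245019889-245019917, minus strand, codons 585 to 594: CTGCTGCTGCCCAGAGGAGAAAAATGTgc
HNRNPH1, exon 10, chr5:179044062-179044081, minus strand, codons 363 to 369: CTACAGCAGGAGCAAGCGGT
HNRNPH1, exon 11, chr5:179043910-179043930, minus strand, codons 383 to 389: tCTACAGCAGGAGCAAGCGGT
HNRNPF, exon 4, chr10:43883055-43883076, minus strand, codons 86 to 93: TCAAGTCCCACAGAACCGAGAT
HNRNPF, exon 4, chr10:43882341-43882370, minus strand, codons 321 to 331: TGGCCCAGATGGAAGAGTGACGGGTGAAGC
The capitals of the HNRNPH1 peaks spell the same 20 bases, which the genome held at 2 places, both inside HNRNPH1, so reads cannot be assigned to exon 10 or exon 11 on these bases. The HNRNPU and HNRNPF sequences each occurred at 1 place.

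Together the 10 genes held 64 vector transcript peaks (0.724%, with a Wilson 95% interval from 0.568 to 0.924). They held 104 of wild-type (0.657%, 0.543 to 0.795). Of G325E they held 48 (0.383%, 0.289 to 0.508). The share was lowest in G325E, and its interval did not overlap that of either other list. These intervals cover counting error only and take peaks as independent, which neighbouring peaks on 1 gene are not. Leaving out any member gave between 2.79 and 3.83 hnRNP peaks per 1000 transcript peaks in G325E, between 5.24 and 6.57 in wild-type and between 5.43 and 7.24 in vector.

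**Figure D1:**
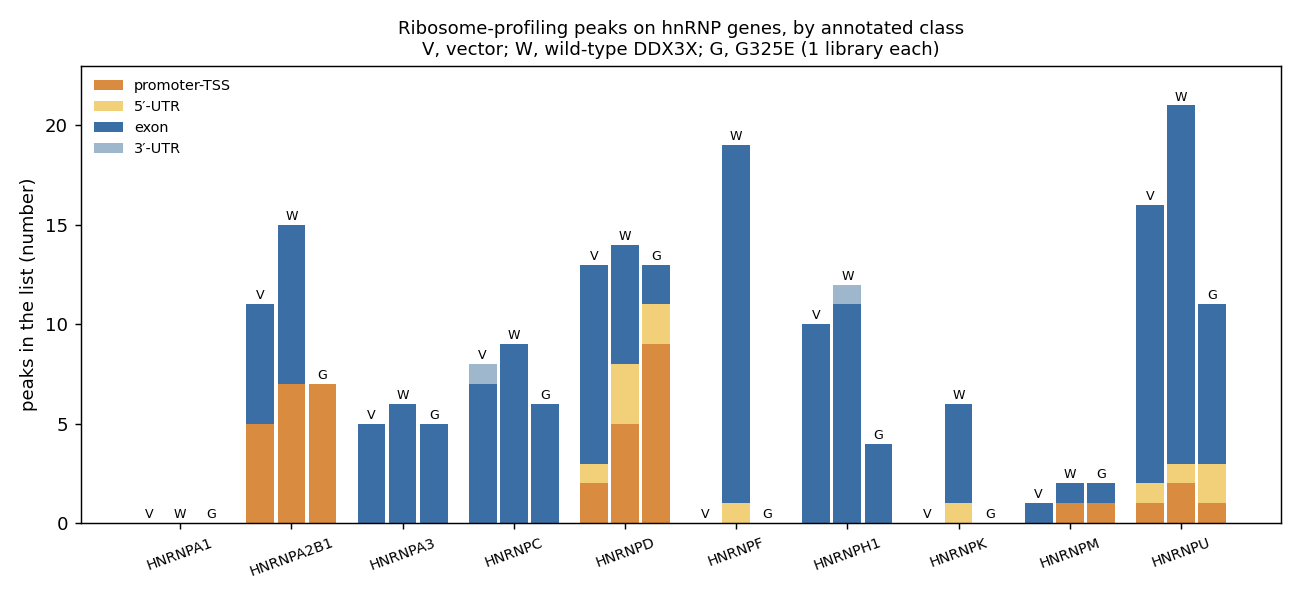
Number of transcript peaks (vertical axis) on each of the 10 hnRNP genes in vector (V), wild-type DDX3X (W) and G325E (G), 1 library each, stacked by annotated class. HNRNPF (19 peaks) and HNRNPK (6 peaks) have bars in wild-type alone, and HNRNPA2B1 in G325E has promoter-TSS peaks alone.

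Numbers were compared gene by gene after scaling the G325E list to the total of the other list (by 1.26 to wild-type and by 0.705 to vector). A gene was called when its scaled numbers differed at least 2-fold and the higher list had at least 5 peaks. Against wild-type, 3 of the 8 genes that could be called were lower in G325E, HNRNPF, HNRNPH1 and HNRNPK, beside 30.7% of all genes tested, and 0 of 8 were higher, beside 27.9%. Against vector, 3 of 6 were lower, HNRNPA2B1, HNRNPH1 and HNRNPU, beside 23% of all genes, and 0 of 6 were higher, beside 37.7%. Between wild-type and vector, 2 of 8 were higher in wild-type, HNRNPF and HNRNPK, beside 32.9%, and 0 of 8 were lower, beside 17.3%. The HNRNPH1 call against wild-type was lost without promoter-TSS peaks and when the stretches with skipped numbers were left out, and the HNRNPK call, for want of peaks, when those under 20 bases were left out or the Gene Name column alone was used. Against vector, the HNRNPU call was lost under each of these alternatives except the Gene Name column, under placement by GENCODE exon and when lists were scaled by the median ratio, as was the HNRNPA2B1 call under that scaling. Calls were also gained. HNRNPA2B1 was called lower against wild-type without promoter-TSS peaks, by Gene Name, on the gene's strand, under median scaling and by GENCODE placement. HNRNPD was called lower against vector without promoter-TSS peaks, with peaks of at least 20 bases and by GENCODE placement. HNRNPC was called lower against vector with peaks of at least 20 bases and with near peaks merged. GENCODE placement added HNRNPA1 in both comparisons. The count of lowered genes against wild-type was near the background, and with so few genes the others allow no more than a count.

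The median scaled ratio of G325E to wild-type was 0.626 over the 8 hnRNP genes and 1.05 over the 1830 genes tested. Against vector it was 0.507 over 6 hnRNP genes and 1.06 over 1450 genes. The wild-type to vector ratio had a median of 0.701 over 8 hnRNP genes and 0.93 over 1453 genes. These comparisons share lists, so they are not separate evidence. The totals used for scaling include the stretches with skipped numbers, and medians without these stretches were not taken.

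**Figure D2:**
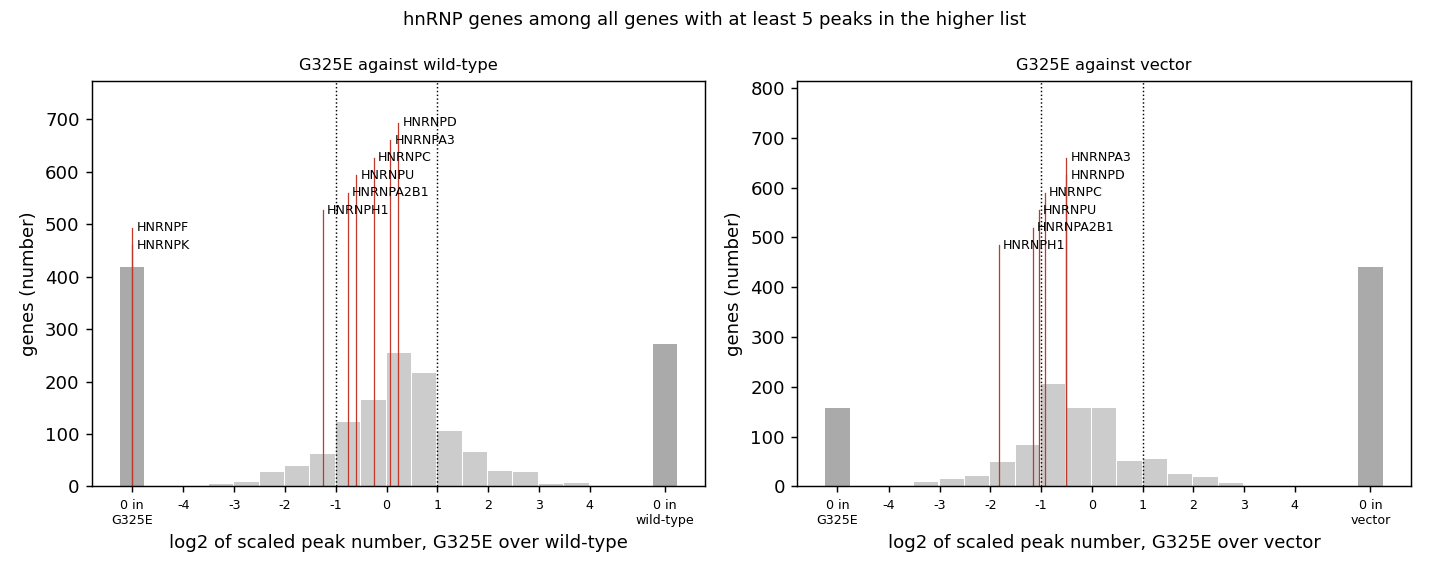
Number of genes (vertical axis) by the log2 ratio of scaled peak numbers (horizontal axis), G325E over wild-type (left) and G325E over vector (right), for genes with at least 5 peaks in the higher list, with genes at 0 in either list as separate darker bars. Red lines place the hnRNP genes, dotted lines mark 2-fold, HNRNPF and HNRNPK stand at 0 in G325E on the left, and HNRNPH1 is the lowest line with peaks in both lists.

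HNRNPF, whose protein binds G-rich RNA through quasi-RRMs (chromosome 10, 43881065 to 43904634, minus strand), had 0 peaks (vector), 19 (wild-type) and 0 (G325E). All 19 lay in exon 4 of 4, which holds its whole coding sequence, 18 of them in the exon class and 1 in the 5′-UTR class, with midpoints from codon 6 to codon 369 of 415. They covered 718 bases. Their GC content, measured in the 31 nt around each midpoint, averaged 56.9% ± 6.9 (SD over peaks). Taking 3 peaks as the floor of an empty list, the G325E number was at least 5.01-fold lower than wild-type, and wild-type was at least 3.53-fold higher than vector. The exact counting intervals, which take an empty list as 0, were wider: they reached a ratio of 0.271 for G325E over wild-type and began at 2.6 for wild-type over vector. No peak number was skipped across the gene in the vector or the G325E list. Of the 17 wild-type peaks of 20 bases or more, all 17 had a middle stretch found at 1 place in the genome.

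HNRNPH1, a close relative of hnRNP F that also binds G-rich splicing elements (chromosome 5, 179041179 to 179061785, minus strand), had 10, 12 and 4 peaks in vector, wild-type and G325E. The G325E number was 2.37-fold lower than wild-type (ratio 0.421, exact 95% counting interval 0.099 to 1.39) and 3.55-fold lower than vector (ratio 0.282, 0.0646 to 0.978). The interval against wild-type holds 1 and that against vector does not. In G325E the peaks were in exons 10, 11 and 12, with midpoints from codon 366 to codon 426 of 449. Exon 5 held 2 peaks (vector), 3 (wild-type) and 0 (G325E), and exon 13 held 1, 2 and 0. The wild-type list skipped 1 number in a long stretch that reaches into the 3′ end of the gene. The gene's G325E peaks averaged 57.3% ± 16.5 GC against 46.2% ± 14.3 in wild-type and 47.1% ± 15 in vector.

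HNRNPK, a poly(C)-binding KH-domain protein (chromosome 9, 86582998 to 86595546, minus strand), had 0, 6 and 0 peaks. Those of wild-type lay in exons 2 to 10 of 17 and averaged 42.5% ± 6.89 GC. It was called on the empty lists, but the exact counting intervals of the ratio, 0 to 1.07 for G325E over wild-type and from 0.657 upward for wild-type over vector, both hold 1. By position, vector had 1 further peak and wild-type 2 inside HNRNPK exons that the annotation gave to the promoter-TSS class of the microRNA gene MIR7-1, while G325E had 0. The middle of that vector peak matched the genome at 2 places, 1 of them outside HNRNPK. Whether vector was empty on this gene thus cannot be told. Of the 3 counted wild-type peaks of 20 bases or more, all 3 matched the genome at more than 1 place.

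HNRNPA2B1 encodes hnRNP A2 and B1, which bind RNA in splicing, transport and microRNA sorting (chromosome 7, 26210771 to 26241149, minus strand). It had 11 peaks (vector), 15 (wild-type) and 7 (G325E). Exon peaks numbered 6, 8 and 0. They lay in exons 2 to 4 of 12 and covered 158 bases in vector and 170 in wild-type. Exon 2, the alternative exon that distinguishes B1 from A2, held 1 peak in vector and 2 in wild-type. The vector peak is shown, with capitals for the bases shared with the longer of the 2 wild-type peaks. The shorter wild-type peak, chr7:26237475-26237486, overlaps the first few bases shown, which are left in lower case.
HNRNPA2B1, exon 2, chr7:26237452-26237478, minus strand: agaaactgttCCTTTGGAGAGGAAAAA
The 7 G325E peaks were all in the promoter-TSS class, as were 5 in vector and 7 in wild-type. Of these, 6 of 7 in G325E, 4 of 5 in vector and 5 of 7 in wild-type lay on the strand opposite to HNRNPA2B1, which is the strand of its divergent neighbour CBX3. On the gene's own strand the numbers were 7, 10 and 1. A further 2 peaks in vector and 3 in wild-type lay on the HNRNPA2B1 strand but were annotated to CBX3. Upstream of the start site vector and wild-type each skipped 2 numbers, and 2 of the 7 G325E peaks and 1 vector peak lay there. The G325E number on all strands was 2.23-fold lower than vector (ratio 0.449, 0.147 to 1.27) and 1.7-fold lower than wild-type (ratio 0.59, 0.203 to 1.54), and both intervals hold 1.

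Genes with at least 5 exon peaks in one list and 0 in another were counted next. Of 8 hnRNP genes with at least 5 exon peaks in wild-type, 3 had 0 in G325E, HNRNPA2B1, HNRNPF and HNRNPK, beside 42.2% of all such genes. Of 6 with at least 5 in vector, 1 had 0 in G325E, HNRNPA2B1, beside 28.3%. Of 8 with at least 5 in wild-type, 2 had 0 in vector, HNRNPF and HNRNPK, beside 31%. Among all genes this emptying in G325E against wild-type was more frequent at low GC, with 71.8% of 78 genes under 45% coding GC and 26.6% of 263 genes at 60% or more. Of the hnRNP genes, 6 had a coding GC of 45 to 50%, of which 2 were emptied, beside 52.1% of 121 genes in that class, and 2 had 50 to 55%, of which 1 was emptied, beside 48.1% of 154.

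HNRNPA1, whose protein is a splicing repressor and component of stress granules (chromosome 12, 54673977 to 54680872, plus strand), had peaks at its exons although none was annotated to it. There were 7 (vector), 8 (wild-type) and 0 (G325E), all with midpoints from codon 12 to codon 117 of 372. The annotation gave all 15 to the non-coding transcript of the pseudogene HNRNPA1P10, and they were not counted above. Each of the 7 peaks of 20 bases or more in vector, and of the 7 in wild-type, matched the genome at more than 1 place, so their source among HNRNPA1 and its pseudogene copies cannot be told apart. In G325E no number was skipped at this locus, and in vector 1 was skipped in a stretch that ends just before the first of its peaks.

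HNRNPA3, a paralog involved in mRNA trafficking (chromosome 2, 178077422 to 178088687, plus strand), had 5, 6 and 5 peaks. In every list they lay in exons 2 to 4 of 11, with 3 in exon 2 and 1 in exon 4. The scaled G325E number was 1.05 times wild-type (0.254 to 4.14) and 0.705 times vector (0.162 to 3.06), and both intervals hold a 2-fold difference in either direction. All 5 G325E peaks overlapped a wild-type peak. They averaged 45.8% ± 5.3 GC, against 47.3% ± 6.01 in wild-type and 48.4% ± 6.84 in vector. The middle stretch of all 4 G325E peaks of 20 bases or more matched more than 1 place in the genome, as did all 4 in vector and all 5 in wild-type.

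HNRNPC, which binds U-rich tracts in introns (chromosome 14, 21677295 to 21737653, minus strand), had 8, 9 and 6 peaks. In G325E all 6 lay in exons 7 to 9 of 9, with midpoints from codon 188 to codon 285 of 293. Exons 3 and 4 together held 3 peaks (vector), 3 (wild-type) and 0 (G325E). The bases covered were 396, 420 and 209, so G325E was further below the other lists in covered length than in number of peaks. Its G325E peaks averaged 46.8% ± 10.6 GC. Of its peaks of 20 bases or more, 4 of 7 (vector), 7 of 8 (wild-type) and 3 of 4 (G325E) matched the genome at more than 1 place, so the position of its peaks is uncertain. Vector skipped 8 numbers and wild-type 3 in a stretch that reaches into the 3′ end of the gene. The listed G325E peaks were on the later part of the coding sequence and not at its start, unlike those of HNRNPU and HNRNPD.

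HNRNPU, a large protein that binds RNA and chromatin (chromosome 1, 245003940 to 245027862, minus strand), had 16, 21 and 11 peaks. The G325E number was 2.06-fold lower than vector (ratio 0.485, 0.203 to 1.11) and 1.51-fold lower than wild-type (ratio 0.662, 0.288 to 1.44), and both intervals hold 1. All exon peaks of G325E were in exons 1 to 3 of 14. Exons 9 to 14 held 9 peaks (vector), 12 (wild-type) and 0 (G325E). On the gene's strand, midpoints reached codon 775 of 825 (vector), codon 809 (wild-type) and codon 272 (G325E). Of the 11 G325E peaks, 3 were on the opposite strand, 2 of them in exons 2 and 3.

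The longest hnRNP peak of any list, 502 bases from 245027032 to 245027533, was in HNRNPU exon 1 in G325E and spans codons 26 to 193. In the same place wild-type had a peak of 115 bases, and both the vector and the wild-type list skipped 1 number there, so whether they had a like peak cannot be read from them. HNRNPU covered 866, 1200 and 953 bases in vector, wild-type and G325E.

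HNRNPD (AUF1), which binds AU-rich elements and takes part in mRNA decay (chromosome 4, 83273651 to 83295656, minus strand), had 13, 14 and 13 peaks, covering 627, 604 and 623 bases. Exon peaks numbered 10, 6 and 2. In vector they reached exon 7, in wild-type exon 7, and in G325E exon 2. Promoter-TSS peaks numbered 2, 5 and 9, and 5′-UTR peaks 1, 3 and 2. Of the 9 promoter-TSS peaks in G325E, 6 were under 20 bases long and their median length was 14 bases, against 37 in vector and 21 in wild-type. A 283-base exon 1 peak of G325E, which begins upstream of the start codon and ends at codon 78, lies where vector and wild-type each skipped 1 number. Wild-type skipped 1 more in a stretch that reaches into the 3′ end.

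HNRNPM, a splicing regulator (chromosome 19, 8509651 to 8553998, plus strand), had 1, 2 and 2 peaks, too few to compare. An exon 1 peak was in every list, and it was 142 bases long for vector and for G325E and 134 for wild-type. Vector and wild-type each skipped 1 number in a stretch that reaches into the start of the gene, where 1 of the 2 G325E peaks lay.

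**Figure D3:**
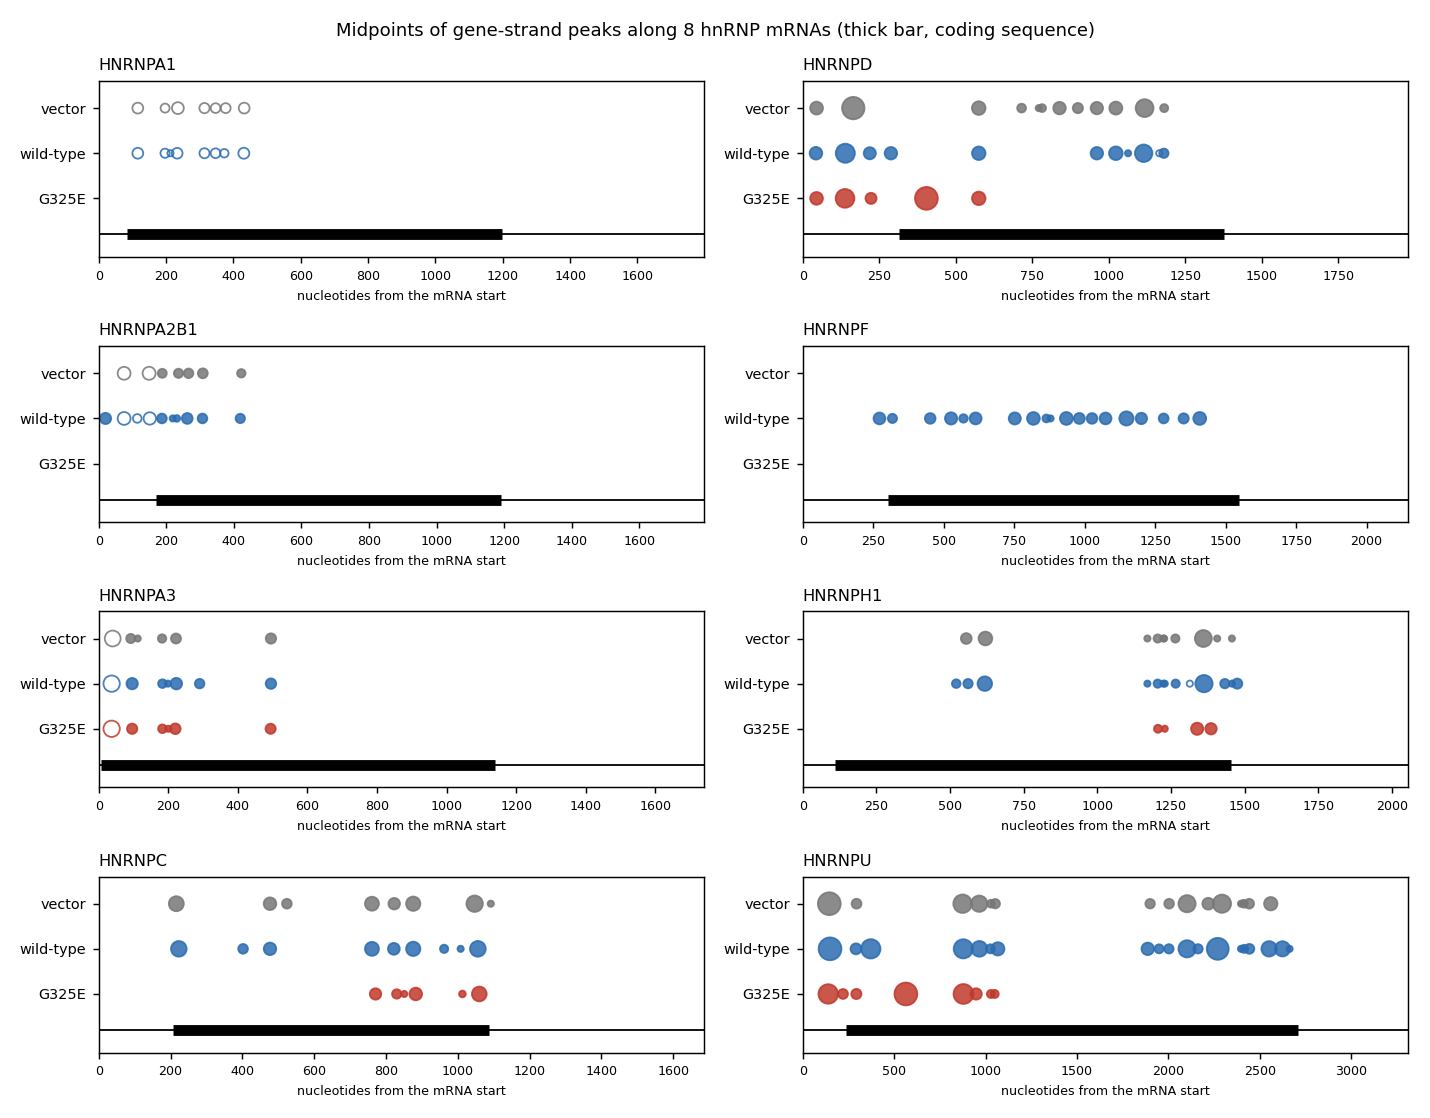
Midpoints of peaks on the gene's strand along 8 hnRNP mRNAs (horizontal axis, nucleotides from the start of the canonical mRNA, cut 600 nt past the coding sequence) in vector, wild-type and G325E. Filled circles are counted peaks, open circles are peaks in the gene's exons or start region that were annotated to another gene or class, circle area grows with peak length up to a limit and the thick bar is the coding sequence. In G325E, HNRNPU and HNRNPD have peaks at the front alone, HNRNPC and HNRNPH1 at the back alone, and HNRNPA2B1, HNRNPF and HNRNPA1 none inside the mRNA.

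The share of hnRNP peaks that were leading, meaning promoter-TSS or 5′-UTR, was 15.6% for vector (10 of 64, 8.71 to 26.4). It was 20.2% for wild-type (21 of 104, 13.6 to 28.9) and 45.8% for G325E (22 of 48, 32.6 to 59.7). The G325E interval lay above both others. Over all genes the shares were 35.6%, 33.1% and 54.3%, so hnRNP peaks were a smaller part leading in each list, and the share was highest in G325E in both sets. HNRNPA2B1 and HNRNPD held 18 of the 22 leading peaks of G325E. Without these genes the shares were 5% (2 of 40), 8% (6 of 75) and 14.3% (4 of 28, 5.7 to 31.5), with overlapping intervals.

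Genes with at least 5 peaks in both lists were called when the leading share differed by at least 20 percentage points. Against wild-type, 2 of 5 hnRNP genes, HNRNPA2B1 and HNRNPD, had a higher leading share in G325E, beside 17.8% of all genes. Against vector, the same genes were called, 2 of 5, beside 16.3%. In wild-type over vector 1 of 6 was called, HNRNPD, beside 8.09%. In HNRNPA2B1 the share was 45.5%, 46.7% and 100% in vector, wild-type and G325E, and in HNRNPD 23.1%, 57.1% and 84.6%. The HNRNPA2B1 peaks behind this share are mostly those of the CBX3 strand. On the gene's strand alone it had too few peaks in G325E to be compared, and HNRNPD alone was called.

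Counted as covered bases, the hnRNP leading share was 20.7% (vector), 19.6% (wild-type) and 31.2% (G325E). The 1713 exon bases of G325E include the HNRNPU peak of 502 bases and an HNRNPD peak of 283. Both lie where vector and wild-type each skipped 1 number, so the G325E share by bases is not a like comparison with theirs. In HNRNPD the leading share by bases was 36.4%, 52.5% and 45.6%. By bases the HNRNPD share in G325E thus lay below that of wild-type. Of the 339 HNRNPD exon bases in G325E, 283 were the exon 1 peak that begins upstream of the start codon. Vector and wild-type each skipped 1 number there, so this order by bases rests on a peak whose like they may not list. By number, 6 of the 9 HNRNPD promoter-TSS peaks in G325E were under 20 bases. Over all genes the covered-base shares were 31.5%, 29.4% and 51.2%.

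Among hnRNP peaks placed in a coding sequence, the mean position, from 0 at the start to 1 at the end, was 0.508 ± 0.311 for vector (SD, 51 peaks), 0.494 ± 0.317 for wild-type (79 peaks) and 0.447 ± 0.326 for G325E (26 peaks). These differ by far less than the spread between peaks. The first 10% of the coding sequence held 15.7%, 15.2% and 15.4% of them, and the last 50% held 49%, 49.4% and 38.5%. Over all genes the first 10% held 13.9%, 12.8% and 23.2%, so the higher G325E share seen there was not seen in the hnRNP genes, whose interval in G325E, 6.15 to 33.5%, nevertheless includes it.

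The GC content of hnRNP peaks averaged 51.6% ± 13.3 (vector), 53.8% ± 13.8 (wild-type) and 63% ± 16.6 (G325E) (SD over 64, 104 and 48 peaks). Over all genes it was 62.4% ± 13.1, 61.8% ± 13.3 and 72.5% ± 12.7. Leading hnRNP peaks averaged 73.9%, 70.4% and 76.2%, and the exon and 3′-UTR peaks 47.4% ± 9.41, 49.6% ± 10.5 and 51.7% ± 12.7. Within a class the hnRNP means thus lay closer together than over all peaks, and the higher mean of G325E went with its larger share of leading peaks. Over all genes the exon and 3′-UTR peaks averaged 58.8%, 58.2% and 67.8%.

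**Figure D4:**
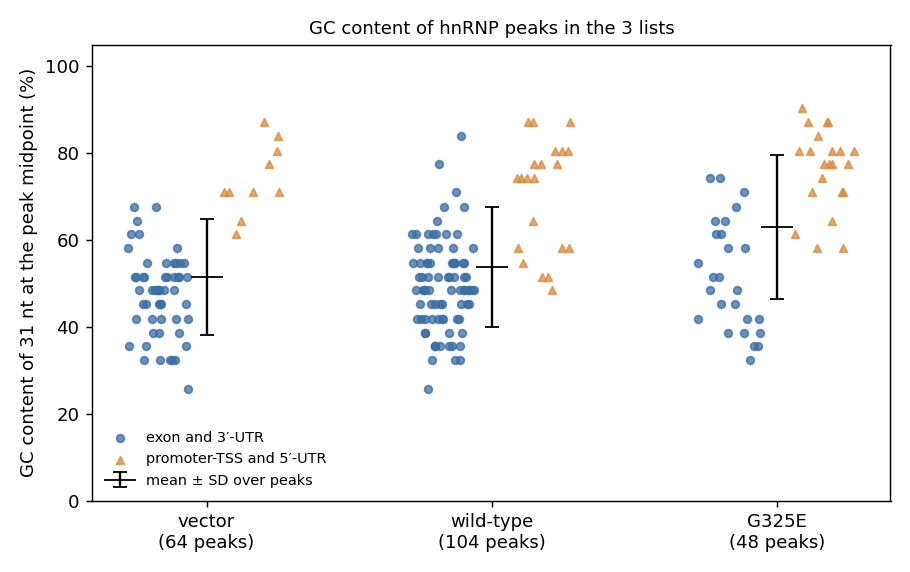
GC content of the 31 nt around the midpoint of each hnRNP peak (vertical axis, percent) in vector, wild-type and G325E, with circles for exon and 3′-UTR peaks, triangles for promoter-TSS and 5′-UTR peaks, and bars for the mean ± SD over all peaks of a list. The triangles sit above most circles in every list, and they make up 22 of the 48 points in G325E against 10 of 64 in vector and 21 of 104 in wild-type.

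Of the 48 G325E hnRNP peaks, 77.1% (37) overlapped a wild-type transcript peak by at least 1 base on either strand, and of the 104 wild-type peaks 29.8% (31, 21.9 to 39.2) overlapped a G325E peak. Against vector the shares were 68.8% of G325E peaks (33 of 48) and 42.2% of vector peaks (27 of 64, 30.9 to 54.4). Wild-type and vector overlapped in 50% of wild-type peaks (52 of 104) and 82.8% of vector peaks (53 of 64), beside 43% and 79.9% over all genes. Over all genes 36.9% of wild-type and 51% of vector peaks overlapped a G325E peak, and of G325E peaks 49.7% overlapped a wild-type and 37% a vector peak. G325E thus listed few hnRNP positions of its own: 11 peaks lay outside the wild-type list. All 11 were in the promoter-TSS class, since without that class all 30 G325E peaks overlapped a wild-type peak. They lay at HNRNPD, HNRNPA2B1 and HNRNPM. Their GC content averaged 79.2% ± 8.21, against 58.2% ± 15.5 for the 37 that overlapped, which were of mixed classes. With the stretches with skipped numbers left out, 35 of 43 G325E peaks overlapped.

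Wild-type hnRNP peaks that overlapped a G325E peak averaged 59% ± 15.6 GC (31 peaks), and those that did not averaged 51.5% ± 12.3 (73 peaks). For vector the means were 56% ± 13.9 (27 peaks) and 48.3% ± 12.1 (37 peaks). The gap was of the same direction over all genes, 67.2% against 58.7% for wild-type and 66.3% against 58.5% for vector. By GC class, wild-type hnRNP peaks under 40% GC overlapped in 26.7% (4 of 15, 10.9 to 52), beside 10.5% of all genes' peaks, those of 40 to 50% in 22.6% (7 of 31), beside 16.4%, those of 50 to 60% in 25.8% (8 of 31), beside 28.3%, and those of 60% or more in 44.4% (12 of 27, 27.6 to 62.7), beside 47.8%. HNRNPF added 19 of the 73 wild-type peaks that did not overlap.

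Peaks on the strand opposite to their gene made up 7.81% of hnRNP peaks in vector (5 of 64), 8.65% in wild-type (9 of 104) and 22.9% in G325E (11 of 48, 13.3 to 36.5). Over all genes with a known strand they made up 14.1%, 14.2% and 21.7%. Of the 11 in G325E, 6 were at HNRNPA2B1, 3 at HNRNPU, 1 at HNRNPD and 1 at HNRNPM. On the gene's strand the leading share was 8.47% (vector), 12.6% (wild-type) and 35.1% (G325E).

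Other genes of the family, 17 in a list made for this comparison, were set beside the members. Between G325E and wild-type HNRNPH2 was called lower, and 2 were called higher, PCBP1 and RALY. Of all genes tested, 30.7% were called lower and 27.9% higher, so calls in either direction were common. HNRNPH2, the paralog of HNRNPH1 and HNRNPF, had 0, 6 and 0 peaks in vector, wild-type and G325E, the pattern of HNRNPF and HNRNPK. PCBP1, a poly(C)-binding relative of hnRNP K encoded without introns, had 1, 0 and 10, with an exact interval of the ratio to wild-type from 2.83 upward. Placed by position it held 5, 5 and 14, so wild-type was not empty on this gene. RALY, a relative of hnRNP C, had 10, 4 and 11, with a ratio to wild-type of 3.47 (1.03 to 15). The wild-type number was the low one for RALY, since G325E was 0.776 times vector. A further 9 genes lay within 2-fold and 4 had too few peaks to be called.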

How the data were processed

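Each of the 3 libraries had 1 deposited file, a list of ribosome peaks. As the study and the submitters' processing notes describe it, the authors trimmed adapters with cutadapt, aligned reads with BWA 0.5.5 to NCBI Build 37 (hg19) and transcript sequences, removed duplicates, called peaks from base coverage and annotated them with HOMER (version not given in the sources used here). The lists hold a position, strand, annotation and gene name for each peak and no count, so read depth cannot be taken from them. The study's supplement reports the non-duplicated mapped reads of each library, which were most for wild-type and fewest for G325E. Peak numbers were scaled to list totals and not to these reads.

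The 10 genes, the gene lists and the alternatives were chosen with earlier results of these data known. All 10 members are named, and of the 17 other family genes those called between G325E and wild-type, with 1 result not reported here. A peak went to the gene of its RefSeq transcript (99.4% of ids matched) or else to its Gene Name. Coordinates are as in the files, where a start usually lies 1 base inside an exon's first base. Peaks whose end preceded their start were taken as 1 base. GC content and sequences came from GRCh37, and codons and exons from GENCODE 44 lifted to that build. Exon numbers are those of the RefSeq transcript in the annotation. Genome matches were exact matches, on either strand of the main chromosomes, of the whole peak (20 to 30 bases) or of its middle 30 bases.

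Shares have Wilson 95% intervals, and ratios exact (Clopper-Pearson) intervals given the sum of both numbers. They cover counting error only. The functions were tested on copies of the wild-type list in which peaks of chosen genes were removed or repeated. The chosen genes had at least 10 peaks, so known changes in genes with fewer were not tested. Software was Python 3.11.15 with numpy, pandas, scipy and matplotlib. Alternatives are given in the closing section.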

Additional observations from a re-analysis of the deposited data

Results flagged for a closer look

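With 1 library per group no sample could be compared with others of its group. The values here come from peaks outside the classes counted in the report. At HNRNPA1 exons, 7 peaks in vector and 8 in wild-type were annotated to a pseudogene transcript, against 0 in G325E, and all of 20 bases or more matched several places in the genome. In HNRNPU introns there were 4 peaks (vector), 7 (wild-type) and 11 (G325E), on the gene's strand, with a mean GC content of 82.2%, 78.8% and 83.8%. The vector and wild-type lists skipped 6 numbers each inside this intron, so the difference cannot be read as one between the libraries. At HNRNPA3, 7 peaks (vector), 11 (wild-type) and 5 (G325E) on its strand were annotated to the microRNA gene MIR4444-1, as promoter-TSS (2 in each list) or transcription termination site. No difference between the lists was tested.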

How the results depend on the processing

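The 30 results were recomputed under up to 17 alternatives, 3 of them added after the data were seen, which gave 279 values. Of these, 244 stayed within the counting interval, within 1 SD over peaks for a mean, or within 1.5 times for a count. The other 35 did not, and a reversal of direction was not scored. Where a cause is not plain from the alternative, the cause was not tested.

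Without promoter-TSS peaks the leading share, then 5′-UTR alone, was 3.57% (vector), 6.74% (wild-type) and 13.3% (G325E). The overlap of G325E peaks with wild-type was then 100% (30 of 30) and with vector 90% (27 of 30). The members with a higher leading share in G325E were 0 against wild-type and 0 against vector, and 1 was lower in wild-type than in vector. On the gene's strand the leading share was 8.47% in vector and 12.6% in wild-type, and the members with a higher leading share in G325E were 1 against wild-type and 1 against vector. By the Gene Name column alone the hnRNP share in G325E was 0.263%, the members with a higher leading share in G325E were 1 against either list, those higher in wild-type than in vector 1, and those emptied in vector 1. With peaks of at least 20 bases, 1 member was emptied of exon peaks in G325E against wild-type and 1 in vector against wild-type, and against vector 1 was higher in wild-type and 1 lower. With peaks under 10 bases apart merged, 1 was lower in wild-type than in vector.

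Placed by GENCODE exon and strand, which brings in HNRNPA1, the leading share was 12.3% in wild-type and 19% in G325E, 5 members were lower in G325E than in wild-type. Then 2 were emptied of exon peaks in G325E against vector and 1 in vector against wild-type, and the members with a higher leading share were 1 in G325E against wild-type, 1 against vector and 0 in wild-type against vector. As a share of covered bases the G325E leading share was 31.2%. Scaled by the median ratio, 1 member was lower in G325E than in vector. At 1.5-fold, 5 were lower in G325E against wild-type, and 2 were lower in wild-type against vector. With at least 10 peaks, 1 was higher in wild-type than in vector. Adding transcription termination site peaks moved none of the 30 results. Leaving out the stretches with skipped numbers kept each within these limits, but HNRNPH1 was no longer called lower against wild-type, nor HNRNPU against vector, and 2 members were called lower in each comparison. With 1 library per group, no alternative could leave out a replicate.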

Other observations

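Intron peaks of the other members were few. HNRNPC had 2, 2 and 1 in vector, wild-type and G325E, HNRNPD 3, 3 and 1, and HNRNPH1 1, 2 and 0. The HNRNPC intron peak found in every list, of 67, 71 and 62 bases, began in the coding sequence of its canonical transcript, at codon 258, 257 and 259, and ran past the exon, with its midpoint outside that mRNA.

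HNRNPF has its whole coding sequence in 1 exon, as do HNRNPA0, HNRNPH2 and PCBP1 among the other family genes. HNRNPA0 had 9, 14 and 18 peaks in vector, wild-type and G325E, HNRNPH2 had 0, 6 and 0. HNRNPA0 peaks averaged 62%, 65.2% and 68.5% GC and HNRNPH2 peaks 52.7% in wild-type.

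SYNCRIP (hnRNP Q) had 7, 14 and 18 peaks and HNRNPUL2, a paralog of HNRNPU, had 1, 10 and 11. Before scaling to list totals, these genes and HNRNPA0, PCBP1 and RALY had their highest number in G325E. HNRNPUL2 was 7.76-fold above vector in G325E (exact counting interval 1.13 to 334).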
